A study of Mus musculus with 6 samples.

Results

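The mitochondrial ribosomal protein genes were taken as all rows of the 6 deposited count tables whose symbol starts with Mrpl or Mrps followed by a digit, and 77 of 23282 rows met this rule. Of these, 48 carried an Mrpl symbol (named for the large subunit) and 29 an Mrps symbol (named for the small subunit). Messenger RNA was measured by 3′ end sequencing (QuantSeq, which yields about 1 tag per transcript) in hippocampus of C57BL/6 mice aged 16 weeks. There were 3 libraries of PHF2 t/g mice and 3 of wild-type (WT) mice, with the labelled tissue, strain and age shared by both groups. The label C57BL/6 names no substrain, so a substrain difference between the groups cannot be told apart from the genotype. The label t/g is read here as a transgene of PHF2, a histone demethylase with a Jumonji domain. The sources used here give neither the construct, nor the promoter that drives it, nor the cells that carry it. The comparison asks how the mRNA of these genes differed between the genotypes.

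Mitochondrial ribosomes translate the few proteins encoded by mitochondrial DNA, all of them subunits of the respiratory chain and ATP synthase. Their ribosomal RNAs come from mitochondrial DNA, whereas every one of their proteins is encoded in the nucleus, made in the cytosol and imported. Some of these proteins descend from the bacterial ribosome, and the others were acquired by mitochondria. In humans, inherited loss of several of them causes combined oxidative phosphorylation deficiency, which often affects the brain.

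The libraries held 6053363 to 8612720 counts in PHF2 t/g, against 5512171 to 8844718 in WT. A low-count filter was passed by 12831 genes. Levels are CPM, counts relative to a library size scaled by TMM, a scaling that assumes most genes do not differ between libraries. Because each transcript gives about 1 tag, levels were not divided by length. Genes can still differ in how well their 3′ ends are annotated and their tags are mapped, which was not checked. The labels name separate samples but not separate animals, so p-values reflect the spread among libraries, which may be technical. Phf2 averaged 38.7 ± 3.96 CPM in PHF2 t/g, against 37.7 ± 1.92 CPM in WT (SD, n = 3 each; log2 fold change 0.03, edgeR adjusted p = 0.929), and tags at its 3′ end need not read a transgene, so the labels cannot be checked by it. All 8 markers of hippocampal excitatory neurons were detected. Their sum was lower in PHF2 t/g, at 4615 to 5251 CPM, against 5315 to 5854 CPM in WT, without overlap. Of these 8 genes, however, 0 were lower and 1 was higher in PHF2 t/g at an edgeR adjusted p under 0.05. A sum gives most weight to the most abundant genes. Several marker sums of other tissues moved with the groups as well. The 7 hypothalamic genes summed to 51.5 to 53.6 CPM in PHF2 t/g, against 4.76 to 5.40 CPM in WT. The 7 striatal genes summed to 682 to 788 CPM in PHF2 t/g, against 518 to 595 CPM in WT. The 6 meningeal genes summed to 147 to 166 CPM in PHF2 t/g, against 73.2 to 99.0 CPM in WT. The same held for 4 endothelial genes (108 to 111 CPM in PHF2 t/g, against 81.2 to 94.98 CPM in WT). By a narrow margin, 6 choroid plexus genes were higher (158 to 558 CPM in PHF2 t/g, against 139.9 to 156 CPM in WT). By a narrow margin too, 4 microglial genes were lower (107.8 to 110.4 CPM in PHF2 t/g, against 110.6 to 149 CPM in WT). Of the choroid plexus and microglial genes, 0 had an edgeR adjusted p under 0.05. Sums of 4 oligodendrocyte genes overlapped, at 2084 to 2124 CPM in PHF2 t/g, against 1836 to 2112 CPM in WT. So did those of 4 astrocyte genes, at 527 to 593 CPM in PHF2 t/g, against 491 to 621 CPM in WT. Of the oligodendrocyte genes, 1 was lower in PHF2 t/g at an edgeR adjusted p under 0.05, and of the astrocyte genes 0 passed. The choroid plexus gene Ttr stood at 292 CPM in PHF2 t/g replicate 1 and at 1.29 to 4.46 CPM in the other 5 libraries. None of these markers was at 0 in all libraries, and their part in the results below was not tested. On multidimensional scaling, WT replicate 2 had a first coordinate of 1.08, where the other 5 libraries had −0.53 to 0.15.

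All 77 genes were annotated as protein coding, lay on 17 chromosomes in RefSeq annotation of GRCm38.p6, and passed the low-count filter. Chromosome 11 held 10 of them, chromosome 17 held 8 and chromosome 7 held 6. Their mean levels over the 6 libraries ran from 1.40 to 206 CPM, a 148-fold range. Most mitochondrial ribosomal proteins are present in a single copy per ribosome. How much of the range comes from the mapping and counting of tags was not tested. The median was 30.2 CPM, 5 genes were above 100 CPM, 62 lay between 10 and 100 CPM and 10 were below 10 CPM.

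The 5 most abundant mRNAs were the same in both groups and made up 27.4% of the summed level. Mrps6, a small-subunit protein with a bacterial counterpart, had 210.3, 210.3 and 172 CPM in PHF2 t/g, against 208, 235 and 201 CPM in WT. Mrpl12, which forms the flexible stalk that recruits translation factors and is present in several copies per ribosome, averaged 177 ± 8.21 CPM in PHF2 t/g, against 206 ± 22.5 CPM in WT. Mrpl53, a large-subunit protein found only in mitochondria, had 179.6, 197 and 166 CPM in PHF2 t/g, against 189, 206 and 203 CPM in WT. The levels of these leading 3 could not be ranked: Mrps6 exceeded Mrpl12 in 4 of 6 libraries, and Mrpl12 exceeded Mrpl53 in 3. Mrps25, a mitochondria-specific protein of the small subunit, averaged 166 ± 1.17 CPM in PHF2 t/g, against 171 ± 14.98 CPM in WT. It lay below Mrpl53 in 5 of 6 libraries and above Mrpl18, a counterpart of the bacterial protein that binds 5S ribosomal RNA, in all 6. Mrpl18 averaged 101 ± 8.40 CPM in PHF2 t/g, against 110 ± 2.91 CPM in WT.

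At the low end, Mrpl15 was counted 9, 15 and 12 times in PHF2 t/g and 7, 4 and 10 times in WT. This gave 1.69 ± 0.604 CPM in PHF2 t/g, against 1.11 ± 0.557 CPM in WT, so its level carried a large counting error. Mrpl21 followed with 2.89 ± 0.711 CPM in PHF2 t/g, against 2.88 ± 0.335 CPM in WT. Mrps27, a pentatricopeptide-repeat protein that binds RNA, had 3.12 ± 0.531 CPM in PHF2 t/g, against 3.54 ± 1.48 CPM in WT. Mrpl22, which lines the tunnel through which the new protein leaves, had 5.36 ± 0.806 CPM in PHF2 t/g, against 6.57 ± 1.10 CPM in WT, and Mrpl47 had 7.61 ± 1.11 CPM in PHF2 t/g, against 8.17 ± 0.753 CPM in WT.

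**Figure D1:**
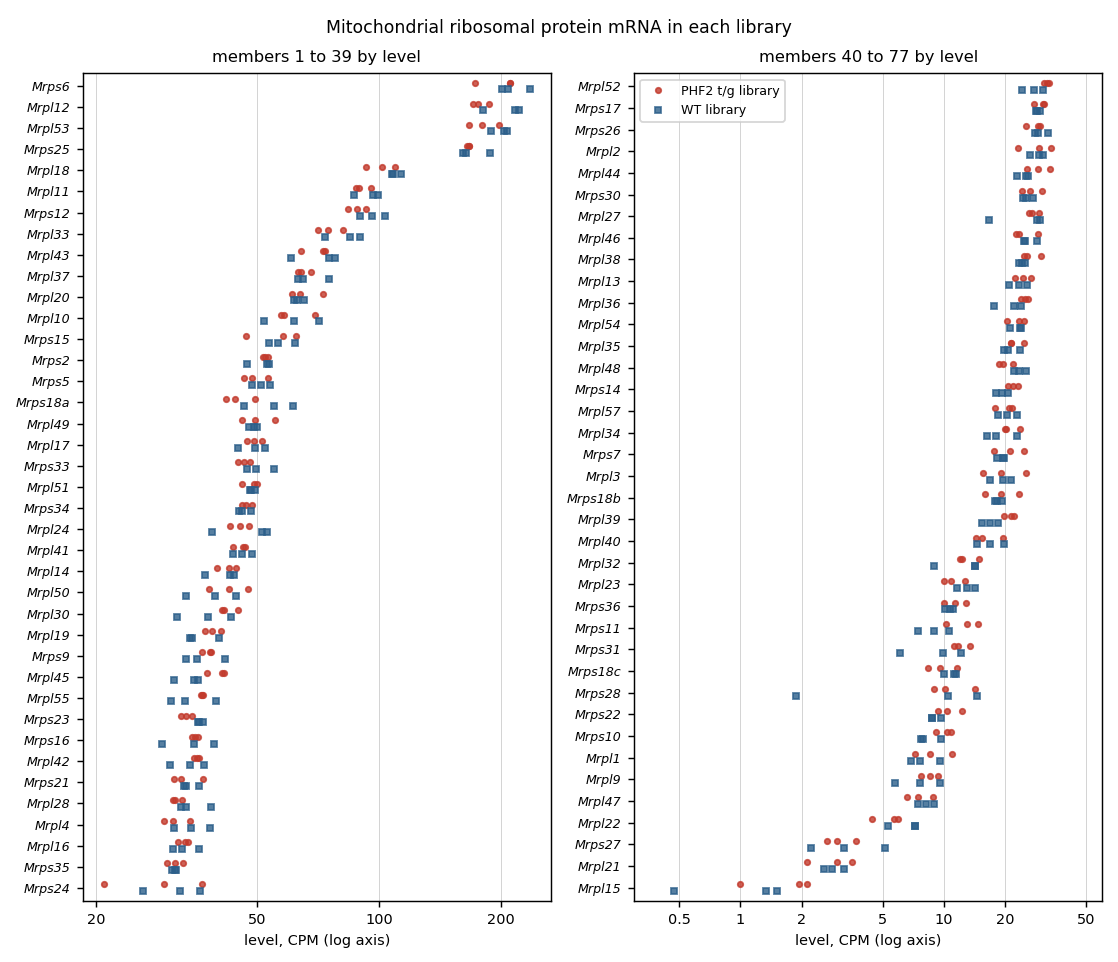
Level of each of the 77 genes in each library, in CPM on log axes, ordered by mean level, with 39 genes on the left and 38 on the right. Red circles are PHF2 t/g libraries and blue squares WT libraries; the colours overlap for most genes, and Mrps28 in WT replicate 2 lies far to the left of its row.

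Some of these counts may include tags of other genes. In GENCODE M21, exons of another gene that also has a row in the files overlap the last 500 bases of 7 members on the opposite strand, and the sources used here do not say whether the counting used strand. The whole of these 500 bases of Mrps25 is covered by Nr2c2, whose counts were 1.02 to 1.32 times those of Mrps25 in the 6 libraries, and 463 bases of Mrpl24 by Rrnad1, at 1.151 to 1.26 times. Mrps34 is covered over 500 bases by Mapk8ip3, whose counts were 4.46 to 5.28 times those of Mrps34. Levels of these members, and of Mrps7, Mrps27, Mrpl19 and Mrpl49, are therefore uncertain. For Mrps27 the overlapping gene, 6430562O15Rik, covers 51 bases and had 0 CPM in every library. With genes that have no counts here included, 12 members are overlapped. Among such genes, Gm16279 overlaps 500 bases of Mrps18b on the opposite strand, and Gm42688 overlaps 418 bases of Mrpl53 on its own strand. RefSeq lists 6 pseudogenes of members, of Mrpl23, Mrpl27, Mrpl48 and Mrps36, with which tags could be shared.

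The summed level of the 77 genes overlapped between the groups. It was 3120.05, 3132 and 3098 CPM in PHF2 t/g, against 3149, 3283 and 3108 CPM in WT. The 3 PHF2 t/g values lay close together inside or just below the WT values, of which WT replicate 2 was the highest. The means were 3117 ± 17.01 CPM in PHF2 t/g, against 3180 ± 91.4 CPM in WT (SD, n = 3 each), a ratio of 0.980, or 0.996 when WT replicate 2 was left out. In bulk tissue, such sums cannot tell the share of cells with many mitochondrial ribosomes apart from the amount of this mRNA per cell.

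This comparison depends on the scaling. With library size alone the sums were 3270.01, 3226 and 3188 CPM in PHF2 t/g, against 3007, 3165 and 3039.6 CPM in WT, so that the groups did not overlap and PHF2 t/g was higher. That scaling also moved the median log2 fold change of all tested genes to 0.12, against 0.02 with TMM. The median of the 77 genes moved with it, from 0.01 with TMM to 0.11 with library size alone, and stayed within 0.01 of the median of all genes under both.

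**Figure D2:**
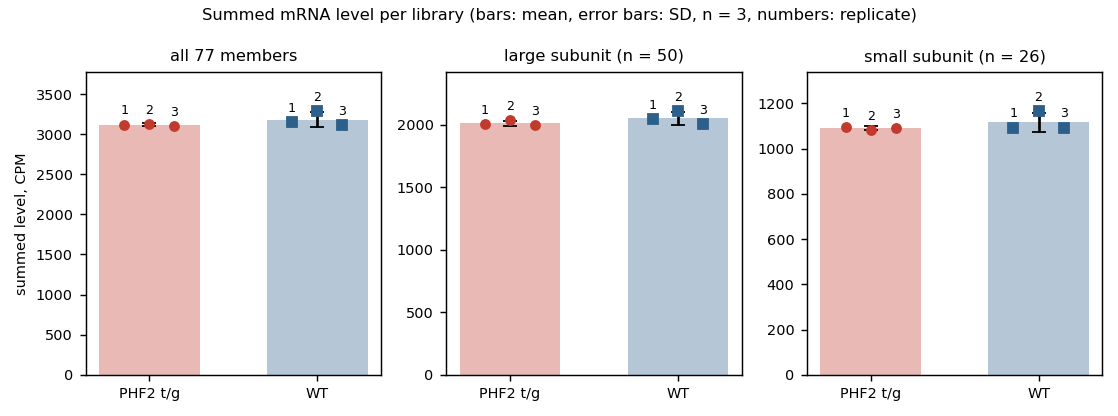
Summed level in CPM of all 77 genes, of the 50 large-subunit and of the 26 small-subunit genes, with a bar for the mean of each group, error bars for the SD (n = 3) and a point per library. PHF2 t/g stands left of WT; the groups overlap in each panel and WT replicate 2 is the highest library in all of them.

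No member passed the test in either direction. With edgeR's quasi-likelihood test and the Benjamini-Hochberg adjustment over all 12831 genes, 0 of 77 had an adjusted p under 0.05, against 2.27% of all tested genes, 0.779% being higher and 1.49% lower in PHF2 t/g. At an unadjusted p under 0.05 there were 5 members (6.49%), 3 higher and 2 lower in PHF2 t/g, against 14.7% of all tested genes, 6.72% being higher and 7.95% lower. This split moved with the scaling: with library size alone 8 members were higher and 0 lower at that p, against 15.3% and 3.42% of all tested genes. Leaving out 1 library gave 1 to 6 members, beside 4.30% to 7.30% of all genes in those fits higher and 5.49% to 8.37% lower. DESeq2 and limma-voom also called 0, with 1 and 5 members at an unadjusted p under 0.05, and DESeq2 gave no adjusted p for 24 members. The smallest adjusted p among members was 0.216, for Mrps11, and the smallest under any of 16 other fits was 0.0888, for Mrpl12 when WT replicate 3 was left out.

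Under TMM scaling, most of the 77 genes were measured precisely enough to bound a difference. The 95% interval of the fold change lay within 1.5-fold in either direction for 65 of 77 (84.4%), against 60.9% of all tested genes, and within 2-fold for 75. The 2 exceptions were Mrpl15, the least abundant, and Mrps28. The median log2 fold change was 0.01 (all tested genes 0.02), the quartiles were −0.07 and 0.14, and 35 members (45.5%) lay below 0, as did 46.1% of all tested genes. The groups did not overlap for 6 members (7.79%), against 20.6% of all tested genes: PHF2 t/g libraries were all higher for Mrpl39, Mrpl45, Mrpl52 and Mrps14, and all lower for Mrpl48 and Mrps23. The spread between replicates was also small, with a median coefficient of variation of 8.59% in PHF2 t/g and 9.21% in WT, where all tested genes had 9.47% and 12.1%. The members were more abundant, with a median of 30.2 CPM against 20.1 CPM for all tested genes. Intervals and spread were not compared at matched levels.

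**Figure D3:**
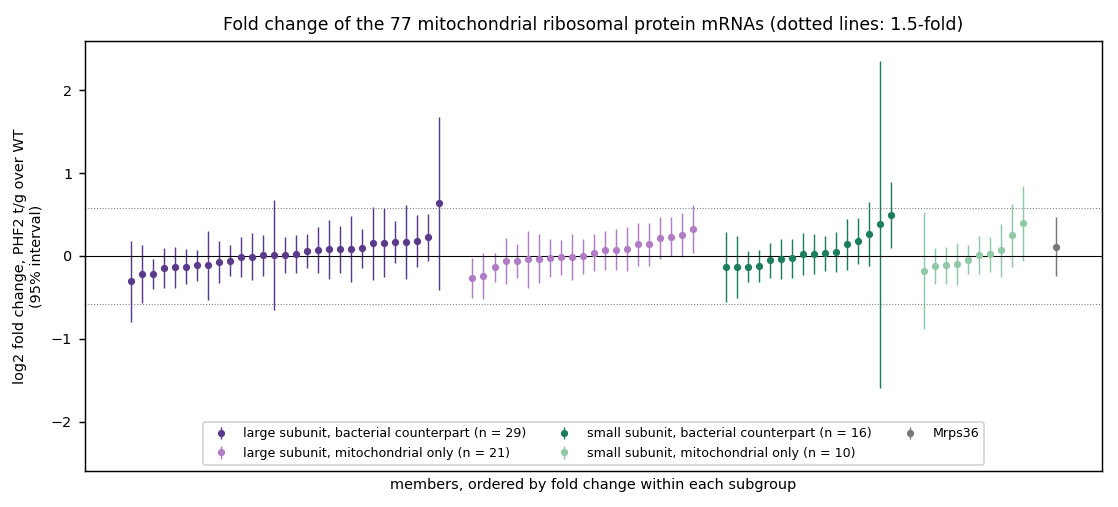
Log2 fold change of each member, PHF2 t/g over WT, as a point with its 95% interval from the edgeR fit, grouped by subunit and by the presence of a bacterial counterpart and ordered by size within each group. Dotted lines mark 1.5-fold; the intervals of Mrpl15 (1.68 at its upper end) and Mrps28 (−1.59 to 2.36) are the widest.

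In the large subunit, which forms the peptide bond, 0 of 50 genes passed the edgeR test, beside 2.27% of all tested genes. An unadjusted edgeR p under 0.05 was found for 4 (8.0%), beside 14.7% of all tested genes. The summed level of these 50 was 2014 ± 20.8 CPM in PHF2 t/g, against 2053 ± 51.6 CPM in WT. The 29 genes with bacterial counterparts had a median log2 fold change of 0.01 and summed to 1114 ± 4.16 CPM in PHF2 t/g, against 1148 ± 37.1 CPM in WT. The 21 mitochondria-specific genes, which include Mrps18a and Mrps30 despite their symbols, had a median of −0.01 and summed to 899.7 ± 17.7 CPM in PHF2 t/g, against 905 ± 23.1 CPM in WT.

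Mrpl12 (chromosome 11, 120484637 to 120488754) had 170.2, 176 and 186 CPM in PHF2 t/g, against 222, 216 and 180.1 CPM in WT. WT replicate 3 lay inside the PHF2 t/g range, and the other 2 WT libraries above it. The log2 fold change was −0.22 (SE 0.088), and the edgeR adjusted p was 0.245. Mrpl39, a mitochondria-specific protein (chromosome 16, 84718281 to 84735244), had 22.1, 21.4 and 19.6 CPM in PHF2 t/g, against 16.8, 15.4 and 18.5 CPM in WT, without overlap. Its log2 fold change of 0.33 (SE 0.139) had an edgeR adjusted p of 0.267. Mrpl45, which sits at the exit of the protein tunnel and holds the ribosome to the inner membrane, had 37.5, 40.9 and 41.3 CPM in PHF2 t/g, against 34.8, 35.7 and 31.0 CPM in WT. The groups did not overlap here either, at a log2 fold change of 0.23 (SE 0.111; edgeR adjusted p = 0.336).

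Mrps18a, a member of the S18 family placed in the large subunit, had 44.1, 41.9 and 49.2 CPM in PHF2 t/g, against 54.8, 61.3 and 46.3 CPM in WT. WT replicate 3 lay below PHF2 t/g replicate 3, so the groups overlapped, at a log2 fold change of −0.27 (SE 0.117, edgeR adjusted p = 0.279). Mrpl48 had 18.5, 19.6 and 21.7 CPM in PHF2 t/g, against 23.4, 22.0 and 25.3 CPM in WT, which did not overlap (log2 fold change −0.24, edgeR adjusted p = 0.417). Mrpl52 had 31.1, 32.2 and 32.8 CPM in PHF2 t/g, against 27.8, 30.5 and 24.2 CPM in WT, also without overlap (log2 fold change 0.22, edgeR adjusted p = 0.430). For the other large-subunit genes with the smallest p, the groups overlapped. Mrpl36, counterpart of a small zinc-binding bacterial protein, averaged 24.9 ± 1.02 CPM in PHF2 t/g, against 21.2 ± 3.17 CPM in WT. Mrpl23, at the tunnel exit, averaged 11.1 ± 1.37 CPM in PHF2 t/g, against 12.9 ± 1.28 CPM in WT. Mrpl53 had a log2 fold change of −0.14 and Mrpl22 one of −0.31, the lowest of all members, with edgeR adjusted p of 0.463 and 0.591.

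The working parts of the large subunit showed no call either. Around the catalytic centre, the counterparts of bacterial proteins that reach it include Mrpl2, Mrpl3, Mrpl4, Mrpl16 and Mrpl27. Mrpl2 averaged 28.7 ± 5.17 CPM in PHF2 t/g, against 28.8 ± 2.14 CPM in WT, and Mrpl3 averaged 20.02 ± 4.98 CPM in PHF2 t/g, against 19.2 ± 2.21 CPM in WT. Mrpl4 averaged 31.4 ± 2.43 CPM in PHF2 t/g, against 34.5 ± 3.46 CPM in WT, and Mrpl16 averaged 32.8 ± 0.933 CPM in PHF2 t/g, against 33.1 ± 2.53 CPM in WT. For these 4 the means differed by less than the larger SD of either group. At the base of the stalk, Mrpl10, which anchors Mrpl12, averaged 61.5 ± 6.69 CPM in PHF2 t/g, against 61.4 ± 9.50 CPM in WT, and its neighbour Mrpl11 averaged 90.7 ± 4.32 CPM in PHF2 t/g, against 94.1 ± 6.87 CPM in WT. At the tunnel exit, Mrpl17 averaged 49.2 ± 2.14 CPM in PHF2 t/g, against 48.8 ± 3.78 CPM in WT. Mrpl24, beside it, averaged 45.2 ± 2.36 CPM in PHF2 t/g, against 47.5 ± 7.77 CPM in WT.

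In the small subunit, which binds the messenger RNA and reads its codons, 0 of 26 genes passed the edgeR test, beside 2.27% of all tested genes. An unadjusted edgeR p under 0.05 was found for 1 (3.85%), beside 14.7% of all tested genes. The summed level of these 26 was 1092 ± 7.17 CPM in PHF2 t/g, against 1117 ± 41.8 CPM in WT. The 16 genes with bacterial counterparts had a median log2 fold change of 0.02 (694 ± 6.33 CPM in PHF2 t/g, against 711 ± 30.4 CPM in WT), and the 10 mitochondria-specific genes one of −0.02 (397 ± 6.97 CPM in PHF2 t/g, against 405 ± 11.6 CPM in WT). The ratio of the summed large-subunit to the summed small-subunit level was 1.83, 1.88 and 1.83 in PHF2 t/g and 1.87, 1.81 and 1.83 in WT, so the balance of the subunits overlapped between the groups.

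Mrps11, counterpart of a protein of the bacterial small-subunit platform (chromosome 7, 78783131 to 78792988), had the smallest p of all members. Its levels were 14.7, 10.2 and 13.0 CPM in PHF2 t/g, against 7.42, 8.93 and 10.6 CPM in WT, from 72 to 132 counts in PHF2 t/g, against 39 to 76 in WT. PHF2 t/g replicate 2 lay just below WT replicate 3, so the groups overlapped, at a log2 fold change of 0.49 (SE 0.190, edgeR adjusted p = 0.216). Mrps31 had 11.7, 11.2 and 13.4 CPM in PHF2 t/g, against 12.2, 6.11 and 9.84 CPM in WT (log2 fold change 0.40, edgeR adjusted p = 0.410). The fold change of Mrps31 was 0.14 on the log2 scale without WT replicate 2 and 0.61 without WT replicate 1. Mrps10 averaged 10.1 ± 0.867 CPM in PHF2 t/g, against 8.43 ± 1.11 CPM in WT, and Mrps12, whose bacterial counterpart controls the accuracy of decoding, 88.2 ± 4.45 CPM in PHF2 t/g, against 96.3 ± 6.82 CPM in WT. The groups overlapped for both genes, with an edgeR adjusted p of 0.543 for Mrps10 and 0.552 for Mrps12. Mrps36, counted with this family by its symbol but now known as a component of the oxoglutarate dehydrogenase complex, averaged 11.4 ± 1.45 CPM in PHF2 t/g, against 10.6 ± 0.455 CPM in WT.

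Several small-subunit genes are known from human mitochondrial disease. Mrps2 averaged 52.4 ± 0.734 CPM in PHF2 t/g, against 51.1 ± 3.36 CPM in WT, and Mrps16 averaged 35.02 ± 0.572 CPM in PHF2 t/g, against 34.3 ± 4.96 CPM in WT. Mrps22 averaged 10.6 ± 1.46 CPM in PHF2 t/g, against 9.06 ± 0.563 CPM in WT (log2 fold change 0.25, edgeR adjusted p = 0.568). Mrps34 averaged 47.1 ± 1.298 CPM in PHF2 t/g, against 46.3 ± 1.63 CPM in WT. Mrps14, another of these, had 23.2, 21.7 and 20.59 CPM in PHF2 t/g, against 18.1, 19.3 and 20.58 CPM in WT, a separation by a margin far below the spread of either group (edgeR adjusted p = 0.580). Mrps23 had 32.3, 33.4 and 34.4 CPM in PHF2 t/g, against 35.6, 35.8 and 36.8 CPM in WT, without overlap at a log2 fold change of −0.11 (edgeR adjusted p = 0.682). Leaving aside the 23 genes picked for their p or level, the other 54 members had log2 fold changes of −0.14 to 0.38, with 23 below 0, and edgeR adjusted p of 0.564 to 0.987.

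Mrps28, a small-subunit protein whose loss in humans causes a combined respiratory chain deficiency, differed most between replicates. It was counted 91, 63 and 88 times in PHF2 t/g and 76, 16 and 69 times in WT, giving 10.1, 8.95 and 14.2 CPM in PHF2 t/g, against 14.5, 1.88 and 10.4 CPM in WT. WT replicate 2 had 0.151 times the mean of the other 2 WT libraries, and the groups overlapped. With all libraries the log2 fold change of Mrps28 came to 0.38 (SE 0.731; edgeR adjusted p = 0.869), and to −0.17 (SE 0.206; edgeR adjusted p = 0.773) without WT replicate 2. Mrpl27 showed a smaller gap in the same library, at 29.2, 26.3 and 27.0 CPM in PHF2 t/g, against 28.7, 16.6 and 29.5 CPM in WT. Over the family, WT replicate 2 was below 0.5 times the mean of the other WT libraries for 2 genes, Mrps28 and Mrpl15, a state found in 3.87% of all tested genes. The same library held the highest value of the 6 for 24 of the 77 genes.

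**Figure D4:**
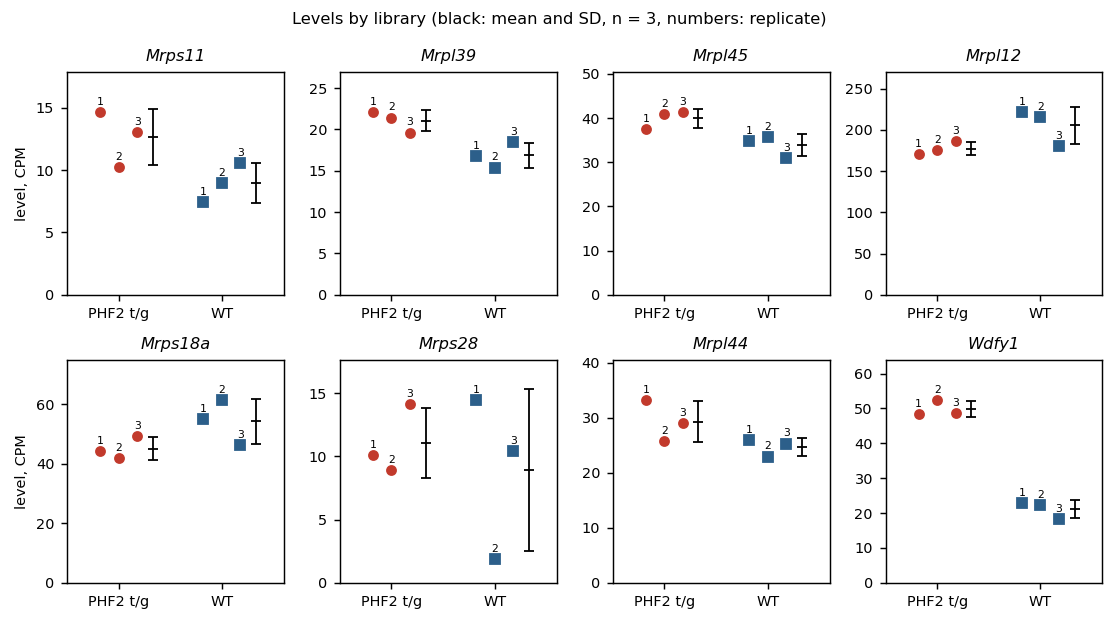
Levels in CPM of 7 members and of Wdfy1 in each library, PHF2 t/g left of WT, with the replicate number above each point and the mean and SD (n = 3) in black. The groups separate without overlap for Mrpl39, Mrpl45 and Wdfy1, and the single low value of Mrps28 is WT replicate 2.

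Some members share their start region with another gene, but the share of all tested genes that do so was not computed. In GENCODE M21, 25 of 77 had a protein-coding gene with its outermost annotated start within 500 bases on the opposite strand. Of 23 such neighbours outside the family 20 were tested, and 1 passed, beside 2.27% of all tested genes. The 1 that passed was Wdfy1, which encodes a phosphoinositide-binding protein of endosomes. It had 48.3, 52.4 and 48.8 CPM in PHF2 t/g, against 22.8, 22.3 and 18.3 CPM in WT, so that all PHF2 t/g values were above all WT values (log2 fold change 1.24, SE 0.119; edgeR adjusted p = 6.39e-06). Whether the Wdfy1 difference comes from the transgene or from another difference between the groups was not tested. Of the 14 annotated Wdfy1 transcripts, 1 starts near Mrpl44, 125 bases from it. Mrpl44 itself, a protein with a ribonuclease III fold (chromosome 1, 79776018 to 79781445), had 33.2, 25.7 and 29.0 CPM in PHF2 t/g, against 25.9, 22.9 and 25.3 CPM in WT. Its groups overlapped at PHF2 t/g replicate 2, with a log2 fold change of 0.25 (SE 0.129, edgeR adjusted p = 0.372). Hira, next to Mrpl40, missed the threshold at a log2 fold change of −0.58 (edgeR adjusted p = 0.0561), where Mrpl40 had −0.04. The only pair of members that face each other was Mrps11 and Mrpl46, whose RefSeq starts are 42 bases apart. Mrpl46 had 23.4, 28.8 and 22.5 CPM in PHF2 t/g, against 28.6, 25.03 and 24.8 CPM in WT (log2 fold change −0.06, edgeR adjusted p = 0.875), beside 0.49 for Mrps11.

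Promoter windows from RefSeq (GRCm38.p6, 250 bases before to 50 bases after the start) were at hand for 68 members and 9756 tested genes. Those printed are the windows of the 5 members with an unadjusted p under 0.05, in order of p, and of Mrpl44, with matches to 3 motifs in capitals. The motifs are GCATGCGC, a core of the site of nuclear respiratory factor 1 (NRF1, an activator of nuclear genes for mitochondrial proteins), CCGGAAG, a core bound by ETS factors, and AAGATGGCG, a core of the YY1 site, all searched on both strands.
Mrps11 (chr7:78782881-78783180, plus strand): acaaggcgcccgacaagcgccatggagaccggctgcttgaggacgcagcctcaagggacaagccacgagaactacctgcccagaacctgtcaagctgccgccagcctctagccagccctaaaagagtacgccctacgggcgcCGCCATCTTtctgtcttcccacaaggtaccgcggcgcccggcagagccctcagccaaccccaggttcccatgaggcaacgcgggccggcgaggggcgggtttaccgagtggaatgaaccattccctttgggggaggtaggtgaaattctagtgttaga
Mrpl12 (chr11:120484387-120484686, plus strand): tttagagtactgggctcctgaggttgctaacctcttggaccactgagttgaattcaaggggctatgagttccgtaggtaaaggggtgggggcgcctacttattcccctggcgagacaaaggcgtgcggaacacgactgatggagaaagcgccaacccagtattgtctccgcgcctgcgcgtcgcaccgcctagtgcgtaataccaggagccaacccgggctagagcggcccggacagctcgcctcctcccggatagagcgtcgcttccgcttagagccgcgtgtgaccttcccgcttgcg
Mrpl39 (chr16:84735195-84735494, minus strand): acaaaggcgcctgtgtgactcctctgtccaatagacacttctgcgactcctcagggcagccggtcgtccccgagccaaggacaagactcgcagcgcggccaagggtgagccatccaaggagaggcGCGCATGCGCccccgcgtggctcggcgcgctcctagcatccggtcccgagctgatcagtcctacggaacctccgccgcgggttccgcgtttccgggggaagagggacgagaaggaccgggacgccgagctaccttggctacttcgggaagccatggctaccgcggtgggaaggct
Mrps18a (chr17:46110754-46111053, plus strand): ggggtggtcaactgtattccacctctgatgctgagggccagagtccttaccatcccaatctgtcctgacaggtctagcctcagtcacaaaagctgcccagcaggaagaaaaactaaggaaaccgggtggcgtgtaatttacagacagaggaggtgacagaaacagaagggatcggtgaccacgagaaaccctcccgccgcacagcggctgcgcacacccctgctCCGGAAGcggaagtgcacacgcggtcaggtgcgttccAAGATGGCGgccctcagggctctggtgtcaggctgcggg
Mrpl45 (chr11:97315466-97315765, plus strand): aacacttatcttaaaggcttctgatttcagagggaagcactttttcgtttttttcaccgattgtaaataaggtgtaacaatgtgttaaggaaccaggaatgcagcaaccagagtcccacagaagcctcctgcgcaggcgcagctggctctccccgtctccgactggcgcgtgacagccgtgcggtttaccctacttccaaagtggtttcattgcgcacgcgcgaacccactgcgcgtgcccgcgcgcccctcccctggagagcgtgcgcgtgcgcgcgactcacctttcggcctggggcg
Mrpl44 (chr1:79775768-79776067, plus strand): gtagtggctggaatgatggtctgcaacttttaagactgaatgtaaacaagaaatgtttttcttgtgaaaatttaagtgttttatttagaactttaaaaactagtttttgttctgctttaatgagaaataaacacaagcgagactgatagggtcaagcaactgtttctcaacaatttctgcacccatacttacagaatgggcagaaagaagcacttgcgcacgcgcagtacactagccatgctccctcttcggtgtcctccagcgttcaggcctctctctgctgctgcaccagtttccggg
The window of Mrps11 held a YY1 core on the opposite strand, 108 bases before the start, and contains the Mrpl46 start at position 209. That of Mrpl39 held the NRF1 core, in its longer form of 10 letters as capitalised, 125 bases before the start, and that of Mrps18a an ETS core 26 bases before and a YY1 core 12 bases after it. The windows of Mrpl12, Mrpl45 and Mrpl44 held none of these letters. That of Mrpl45 lies inside the gene, which RefSeq lists from 97314923, so it does not cover the outermost listed start.

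A gene was counted here when any of its windows held the letters. The 68 members had 74 windows and the 9756 tested genes 12603, and a gene with more windows has more chances to match. Across the family, the ETS core was present for 25 of 68 genes (36.8%), against 19.1% of all tested genes with a window. The YY1 core was present in 8 (11.8%, against 3.58%), and the NRF1 core GCATGCGC also in 8 (11.8%, against 5.88%). The longer form, which contains the shorter and is the one capitalised in the Mrpl39 window, was found in 3 (4.41%, against 2.27%). At least 1 of the NRF1, ETS and YY1 cores was found for 35 genes (51.5%, against 26.2%). GGGCGG, the core of the SP1 site, was in 34 (50%, against 69.2%), and the TATA sequence TATAAA in 5 (7.35%, against 8.67%). The windows had a median GC content of 58.5%, against 61.0%. These shares are descriptions of the letters, and no test was made of them.

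Other genes of mitochondrial gene expression gave the same count of calls, 0 in each list, beside 2.27% of all tested genes. The 6 tested mitoribosomal proteins that carry other symbols had 0 past the test and a median log2 fold change of −0.05. Among them Ict1, the peptidyl-tRNA hydrolase built into the large subunit and also called Mrpl58, averaged 15.2 ± 0.877 CPM in PHF2 t/g, against 17.3 ± 0.526 CPM in WT (edgeR adjusted p = 0.558). Of 12 mitochondrial translation factors 0 passed, with a median of 0.14 and 10 above 0. The smallest p was that of Mtrf1l, a release factor (edgeR adjusted p = 0.431). Of 27 tested assembly and ribosomal RNA processing factors 0 passed, with a median of 0.03. Dhx30, an RNA helicase of mitochondrial RNA granules, came nearest at 79.1 ± 2.46 CPM in PHF2 t/g, against 64.3 ± 3.73 CPM in WT (edgeR adjusted p = 0.109). Of 19 tested mitochondrial tRNA synthetases 0 passed, with a median of 0.02. Cars2, which charges the mitochondrial cysteine tRNA, averaged 11.8 ± 1.73 CPM in PHF2 t/g, against 8.44 ± 2.88 CPM in WT (edgeR adjusted p = 0.268). Of 14 tested genes for transcription and upkeep of mitochondrial DNA and its RNA 0 passed, with a median of 0.12. Lrpprc, which stabilises mitochondrial mRNA, averaged 388 ± 20.2 CPM in PHF2 t/g, against 462 ± 38.1 CPM in WT (edgeR adjusted p = 0.121). At an unadjusted p under 0.05 there were 4 assembly factors (14.8%), 2 synthetases (10.5%) and 2 genes of the last list (14.3%), beside 14.7% of all tested genes, and 0 in the other lists.

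The most similar families gave 1 call each, where 2.27% of all tested genes were called. The cytosolic ribosomal proteins, whose ribosomes make the mitochondrial ones, summed to 12622 ± 214 CPM in PHF2 t/g, against 14132 ± 386 CPM in WT, and of 78 tested genes 1, Rps9, fell in PHF2 t/g. Their median log2 fold change was −0.10, and 22 of 78 (28.2%) had an unadjusted p under 0.05, 21 of them lower in PHF2 t/g, beside 14.7% of all tested genes, 7.95% being lower. Of 77 tested oxidative phosphorylation subunits 1 fell, Cox6c, a subunit of cytochrome c oxidase, at 459 ± 34.7 CPM in PHF2 t/g, against 580 ± 44.7 CPM in WT (edgeR adjusted p = 0.03995). Their median was −0.03, and 10 (13.0%) had an unadjusted p under 0.05, where the mitochondrial ribosomal proteins had 6.49% and all tested genes 14.7%. Differences between these lists were not tested.

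**Figure D5:**
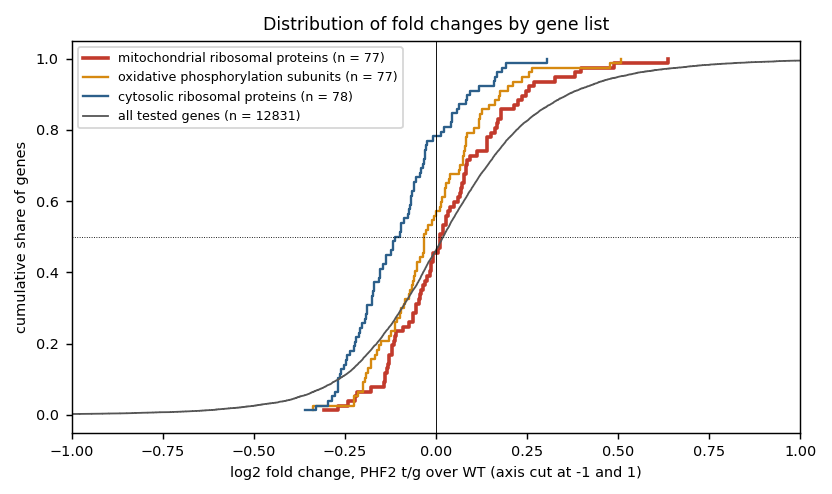
Cumulative share of genes by log2 fold change, PHF2 t/g over WT, for the mitochondrial ribosomal proteins (n = 77), oxidative phosphorylation subunits (n = 77), cytosolic ribosomal proteins (n = 78) and all tested genes (n = 12831), with the axis cut at −1 and 1. The curve of the mitochondrial ribosomal proteins crosses the middle at 0.01, beside 0.02 for all genes, and that of the cytosolic ones at −0.10.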

How the data were processed

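Counts per gene symbol were deposited by the authors as raw values, 1 table per library, and per the labels' protocols Trizol RNA and the QuantSeq kit were used. The build mm10, Bowtie2 and edgeR are named per the submitters' processing notes; the sources used here give no version, counting program, annotation or strand setting. Each table has 23282 rows, of which 44 repeat a symbol, none a member. Groups and replicate numbers came from sample titles. No 2 libraries agreed within sampling noise (chi-square per gene at least 2.78).

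Genes were filtered with filterByExpr, scaled by TMM and tested with edgeR 4.0.16 in R 4.3.3 (robust quasi-likelihood fit, genotype as sole term). P-values were adjusted by Benjamini-Hochberg over all 12831, with 0.05 as the threshold. Each SE was derived from that fit, as the absolute log2 coefficient before edgeR's shrinkage divided by the square root of the F statistic. Intervals at 95% are the reported log2 fold change plus or minus this SE times a t quantile. The procedure was tested on simulated data. DESeq2 1.42.0, limma 3.58.1 (voom) and the other settings in the closing section were alternatives. Members and lists were chosen with earlier results of these data known. Named were the 8 members with the smallest p in each direction, the 5 highest and 5 lowest by level, and the smallest p of each subgroup or list. Other members, Wdfy1, Hira and the overlapping genes were chosen after their values were seen. Gene positions came from RefSeq (GRCm38.p6), overlaps and neighbours from GENCODE M21.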

Additional observations from a re-analysis of the deposited data

How the results depend on the processing

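The 77 genes had 0 calls under every alternative run, though DESeq2 gave no adjusted p for 24 of them. Of the 23 named members, 0 of the 357 adjusted p from 16 fits were under 0.05, and DESeq2 gave none for 11. Their signs were kept in 334 of 345 values from the 15 fits with fold changes of their own. The 11 sign changes fell on 3 genes: Mrps25 was 0.056 with library size alone, 0.037 when WT replicate 2 was left out together with PHF2 t/g replicate 1, and −0.098 to 0.031 on leaving out 1 library; Mrpl21 was −0.00087 with DESeq2, −0.012 with limma-voom, −0.017 with the replicate block, −0.037 without that pair, and −0.14 to 0.18 on leaving out 1 library; Mrps27 was −0.47 to 0.20 on leaving out 1 library. Of all 77, 42 changed sign in at least 1 of 16 fits. Library size alone moved the median of the members to 0.11 and the number below 0 to 18, with sums of 3270.01, 3226 and 3188 CPM in PHF2 t/g replicates 1 to 3 and 3007 and 3165 CPM in WT replicates 1 and 2, and the calls over all genes to 207 higher and 70 lower, against 100 and 191 with TMM. Calls over all genes, 291, became 606 without a low-count filter, 149 with a fit that was not robust, 547 at a threshold of 0.10, 140 without the pair and 49 to 392 on leaving out each library (49, 106 and 116 without PHF2 t/g replicates 1 to 3, and 285, 392 and 209 without WT replicates 1 to 3). With promoter windows of 100 bases, the longer NRF1 form was found for 1.47% of members with a window (1.27% of all such tested genes). The excess of this longer form in the 300-base window was thus nearly lost, but it rested on 3 members, of which 1 remained. The ETS, YY1 and shorter NRF1 cores kept an excess with 100 bases. ETS was found for 27.9% of these members (12.04% of all such tested genes). The YY1 core was found for 10.29% (2.47%) and the shorter NRF1 form for 8.82% (3.08%). SP1 was found for 27.9% of these members (47.0% of all such tested genes) and TATAAA for 0.0% (3.15%). The causes were not tested. Whether the replicate numbers pair the libraries was left unsettled. Correlations of deviations were −0.0044, 0.123 and 0.085 for libraries of the same number, and −0.126 to 0.067 for the others. Not every library correlated best with its own number. Deviations from the mean of 3 libraries depend on each other, so these values cannot decide it. With the number as a block there were 299 calls and 0 members. Depth limits the 10 members below 10 CPM, most of all Mrpl15 with 4 to 15 counts per library.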
